A study of Mus musculus with 4 samples.

Results

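Integrins are receptors for extracellular matrix and for other cells, and laminins are the matrix proteins that many epithelial integrins bind. The genes described here are the mouse protein-coding genes whose symbols name an integrin alpha chain, an integrin beta chain or a laminin chain. They came to 37 of the 38293 gene rows in the count files, 26 integrin and 11 laminin genes, and all 37 had a count in at least 1 library. RNA was sequenced from 4 MMTV-Neu mammary tumours (FVB strain), 2 labelled WT and 2 labelled AXL KO. In this model a mammary tumour virus promoter drives the Neu (Erbb2) oncogene in mammary epithelium, and both groups carry it. AXL is a receptor tyrosine kinase that binds the ligand GAS6. The labels give no age and do not say that the 2 libraries of a group came from separate animals, so the spread that p-values are measured against may be in part technical.

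Gene counts summed to between 18929743 and 33131739 per library. Levels are given as CPM, counts scaled to library size with edgeR's TMM (trimmed mean of M values) factors. The libraries are written WT 1, WT 2, AXL KO 1 and AXL KO 2, and values for a group are in that order. Axl, the targeted gene, was at 61.8 and 35.2 CPM (WT) and 4.75 and 4.89 CPM (AXL KO), which goes with the labels. The log2 difference was −3.33 ± 0.35 (SE), with an adjusted p of 0.9997 by edgeR and of 2.23e-13 by DESeq2. Without WT 1 the edgeR adjusted p was 0.0237, but the WT side of that fit is WT 2 alone, assumed to vary as the AXL KO pair does. Of 6 luminal markers, Epcam, Krt8, Krt18 and Cdh1 each had at least 341 CPM in every library, while Krt19 was at 3.27 to 9.24 CPM. Erbb2 was at 10967.5 and 12594.3 CPM (WT) and 19776.3 and 19975.1 CPM (AXL KO), and its groups did not overlap. Its log2 difference was 0.75 ± 1.05 (SE, unadjusted p = 0.50 by edgeR). These counts are of the mouse gene row and do not tell transgene reads from those of the mouse's own gene. Of 7 basal and myoepithelial markers, the keratin genes Krt5 and Krt14 had at most 1.36 CPM, and Acta2, which stromal cells also express, was highest at 9.99 to 46.6 CPM. WT 2 stood apart from the other libraries over the whole table: it was the highest of the 4 for 34.6% and the lowest for 35.8% of the 14330 genes tested. A part of the results below is therefore also given without it. AXL KO 2 carries another prefix in its description than the other 3 libraries, so values without it are those within the shared prefix.

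Each integrin is a pair of an alpha and a beta chain. The pair of Itga6 and Itgb4 binds laminin and anchors epithelial cells in hemidesmosomes, the plaques that tie keratin filaments to the basement membrane. Itgb1 pairs with many alpha chains, Itgav pairs with Itgb3, Itgb5, Itgb6 and Itgb8 to bind ligands with an RGD motif or to activate latent TGF-beta, and Itgb2 pairs with the alpha chains of leukocytes. A laminin is a trimer of an alpha, a beta and a gamma chain, and the alpha chain largely sets which integrins it binds. In the mammary gland, laminin of the basement membrane is known to hold epithelial polarity.

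No integrin or laminin gene passed edgeR's quasi-likelihood test between AXL KO and WT. Of the 37 genes 36 had enough counts to be tested, and 0 were called higher and 0 lower at an adjusted p of 0.05, as were 0% of all 14330 genes in either direction. Every one of the 36 had an adjusted p of 0.9997, and 1 gene, Lama5, had an unadjusted p under 0.05, against 2.19% of all genes. Limma-voom and DESeq2 called 0 members as well, beside 0% and 0.112% of all genes. At an unadjusted p under 0.05 limma-voom had 0 members and 1.99% of all genes, and DESeq2 had 2 members and 3.5% of all genes. For 11 of the 36 genes the groups did not overlap, against 29.2% of all genes tested. In 7 of these the AXL KO pair was the higher, a pattern shared by 14.7% of all genes, and in 4 it was the lower, shared by 14.5%. The 7 were Itgb3, Itgb6, Itgb7, Itgb8, Itga1, Lama3 and Lamb3, and the 4 were Itga6, Itga10, Itgb4 and Lama5. The median log2 difference of the 36 was 0.10, beside −0.0019 over all genes tested.

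**Figure D1:**
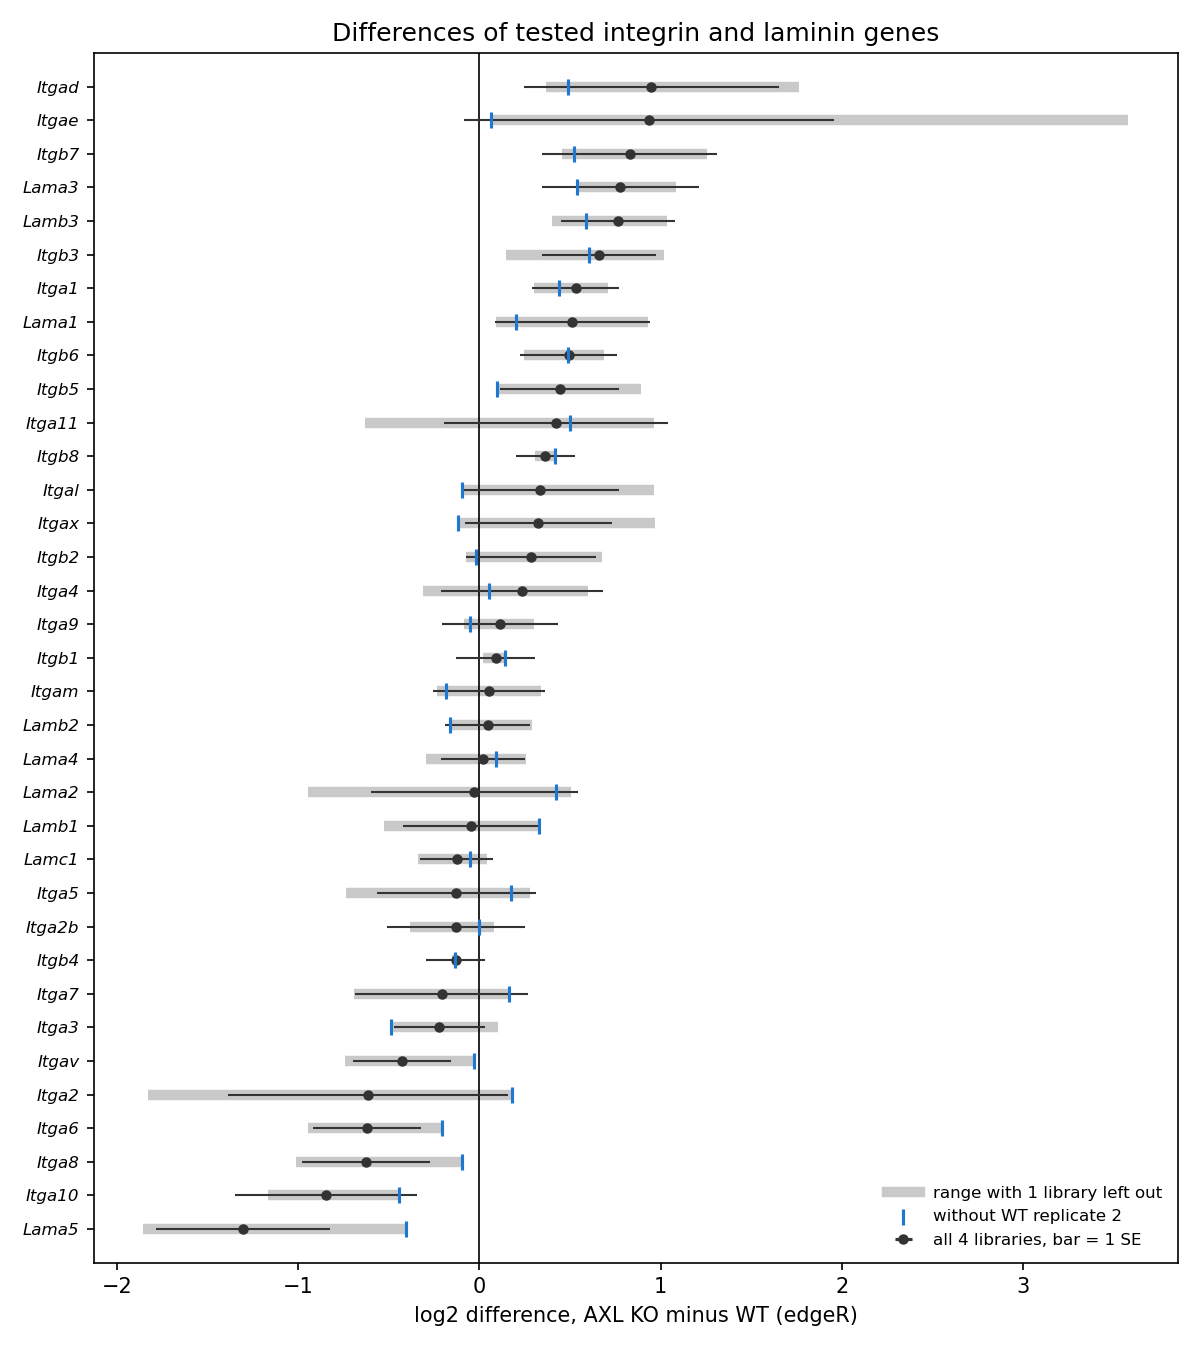
The log2 difference between AXL KO and WT (horizontal axis, edgeR) is shown for the tested integrin and laminin genes, with all 4 libraries (black points, bars of 1 standard error), with each library left out in turn (grey range) and without WT 2 (blue ticks). Lama5 lies lowest at −1.31 and moves to −0.41 without WT 2, while Itgb8 and Itgb4 have narrow ranges.

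The gap between the 2 WT libraries was larger than the difference between the groups for 26 of the 36 genes, 72.2%, as it was for 73.8% of all genes tested. With any 1 library left out, 19 of the 36 genes kept the sign of their difference, and they also kept it under every other setting tried. Among these were Itga1, Itga6, Itga8, Itga10, Itgad, Itgae, Itgav, Itgb1, Itgb3, Itgb4, Itgb5, Itgb6, Itgb7, Itgb8, Lama1, Lama3, Lama5 and Lamb3. The other 17 took both signs.

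Levels of different genes were compared per kilobase of exon, as RPKM computed from the scaled counts and the union of the exons in GENCODE M21. Itgb1 had the highest mean over the 4 libraries at 145 RPKM, followed by Itgb5 at 75.1 and Itga6 at 45.6 RPKM. Lamb2 followed at 41.7, Itgb4 at 26.3 and Itgb3 at 19.3 RPKM. The leading genes thus were the laminin receptor chains Itga6, Itgb1 and Itgb4, the Itgav partners Itgb3 and Itgb5, and the laminin chain Lamb2. At the other end were Lamc3 at 0.0467, Itga2 at 0.108, Itgad at 0.117 and Lama3 at 0.179 RPKM. When the longest protein-coding transcript was taken as the length, the same 4 genes were lowest, and Itga6 moved to 95.4 RPKM and from the third place to the second. The union of exons of Itga6 has 9025 bases and its longest coding transcript 4310, the largest ratio of these lengths among these genes. Levels per kilobase of different genes thus depend on the length chosen, and these lengths do not bound the uncertainty.

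Of the 6 epithelial integrin genes, 2 were higher and 2 lower in both AXL KO libraries than in both WT libraries. Over all genes tested the shares were 14.7% and 14.5%. The list median was −0.18 on the log2 scale, and 0.02 without WT 2. Itga6, on chromosome 2 from 71745616 to 71858416 (GRCm38), encodes the laminin-binding alpha chain. It was at 374 and 624 CPM (WT) and 332 and 316 CPM (AXL KO). WT 2 alone was far above the rest, and the groups did not overlap. The log2 difference was −0.62 ± 0.30 (SE, unadjusted p = 0.089) by edgeR and −0.21 without WT 2. Its partner in hemidesmosomes, Itgb4, was at 194 and 192 CPM (WT) and 176 and 177 CPM (AXL KO). The groups of Itgb4 did not overlap, the libraries within each group lying close together, and the log2 difference was −0.13 ± 0.16 (SE, unadjusted p = 0.45). The ratio of Itga6 to Itgb4 per kilobase was 1.5 in WT 1, 2.52 in WT 2, and 1.47 and 1.39 in the AXL KO libraries. Thus WT 2 held more Itga6 per Itgb4, and the other 3 libraries were near each other. Exons of Itgb4 overlap a noncoding gene on the opposite strand, B230344G16Rik, over 7.66% of their length, and the strand setting of the counts is not given in the sources used here.

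Itgb8 and Itgb6, the epithelial partners of Itgav that activate latent TGF-beta, were at slightly higher levels in both AXL KO libraries. Itgb8, on chromosome 12 from 119158022 to 119238802, was at 63.9 and 69.0 CPM (WT) and 85.9 and 85.1 CPM (AXL KO). Its log2 difference of 0.36 ± 0.16 (SE, unadjusted p = 0.075) stayed between 0.31 and 0.42 with any 1 library left out. Itgb6, on chromosome 2 from 60598292 to 60722643, was at 13.6 and 13.5 CPM (WT) and 22.1 and 16.1 CPM (AXL KO), with a log2 difference of 0.49 ± 0.27 (SE, unadjusted p = 0.12). Here AXL KO 1 was the higher knockout library, and without it the difference was 0.24. Itga3, a further laminin-binding alpha chain, was at 68.0 and 45.2 CPM (WT) and 46.2 and 50.9 CPM (AXL KO), so its groups overlapped. Itga2, a collagen-binding alpha chain, had 12, 26, 5 and 30 counts in WT 1, WT 2, AXL KO 1 and AXL KO 2, too few to compare.

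**Figure D2:**
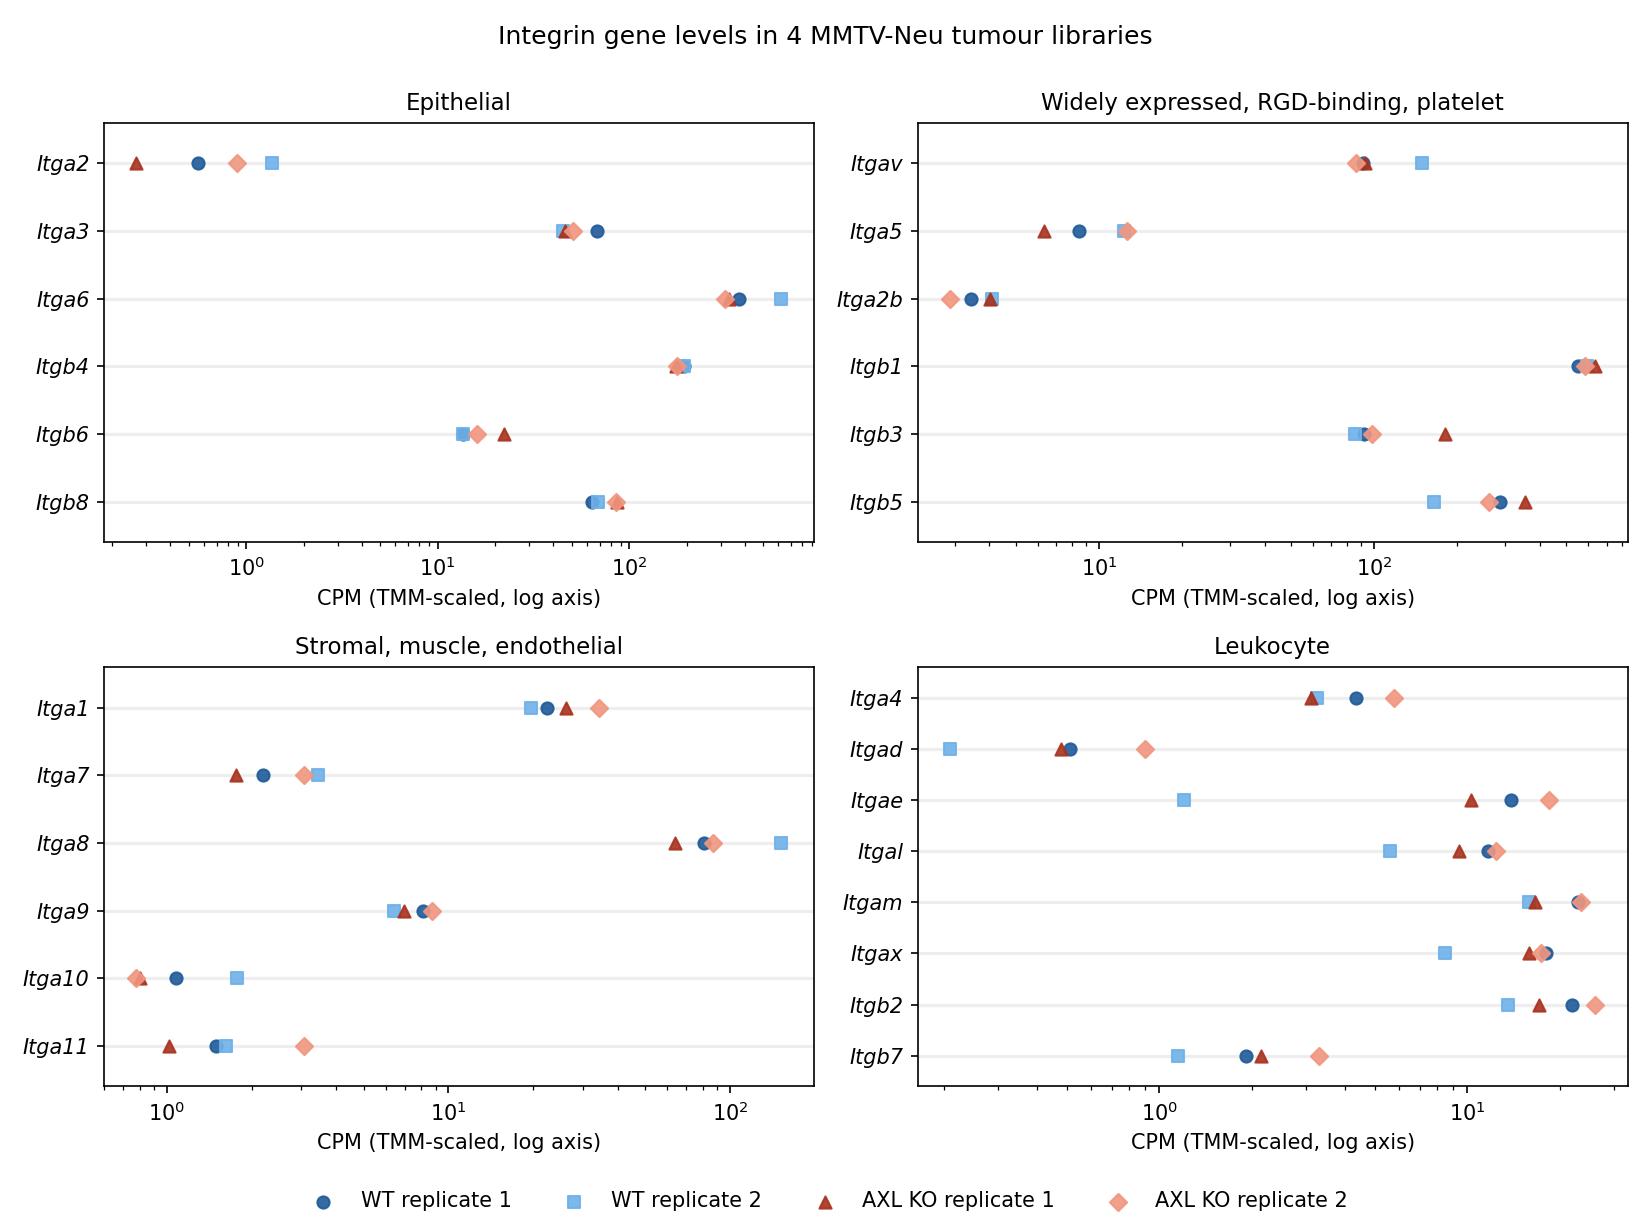
Levels of the 26 integrin genes in each tumour library (CPM with TMM scaling, log axis), in 4 panels by the cells they are best known from. WT 2 (light blue squares) is the highest library for Itga6, Itgav and Itga8 and the lowest for 7 of the 8 leukocyte integrins.

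Lama5 had the largest difference of all 36 genes, and its size depended on WT 2. Lama5 encodes the alpha chain of the laminins most common in adult basement membranes and occupies bases 180176373 to 180225859 of chromosome 2, minus strand. It was at 139 and 378 CPM (WT) and 96.03 and 113 CPM (AXL KO). Both AXL KO libraries were below both WT libraries, but WT 1 was much nearer to them than to WT 2. The log2 difference was −1.31 ± 0.48 (SE, unadjusted p = 0.041), a level 2.47-fold lower in AXL KO. It was −0.41 without WT 2 and −1.85 without WT 1, and in the latter fit Lama5 passed edgeR's test with an adjusted p of 0.0283, as 1 of the 216 genes called. In that fit WT 2 is the only WT library, and the spread comes from the AXL KO pair alone. With AXL KO 1 or AXL KO 2 left out it was −1.20 and −1.44, and the adjusted p over the 4 such fits ran from 0.0283 to 0.9998. The sequence before the start of Lama5 is shown because this gene carried the largest difference. It holds the 250 bases up to the RefSeq start, chr2:180225860-180226109 in GRCm38.p6, on the minus strand, with matches to any of 6 searched motifs in capitals.
Lama5: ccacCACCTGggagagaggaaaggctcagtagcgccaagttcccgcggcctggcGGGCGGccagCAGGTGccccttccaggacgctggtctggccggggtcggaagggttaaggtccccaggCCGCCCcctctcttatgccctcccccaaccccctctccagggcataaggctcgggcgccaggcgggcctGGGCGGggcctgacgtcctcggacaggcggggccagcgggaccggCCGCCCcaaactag
Each of the 6 motifs was searched on both strands in 32851 RefSeq windows of this length. The GC box, spelled GGGCGG, was in 32.7% of these windows and was found 4 times before Lama5. The E-box with the letters CACCTG was in 17.2% of windows and was found 2 times here, without overlapping a GC box. The other 4 motifs were not in the Lama5 window. Of these the ETS-type motif, searched as GAGGAAG, was in 10.6% of all windows. The AP-1 motif, searched as TGANTCA, was in 6.75% of them. The hypoxia response core with the letters ACGTG was in 16.6%. The share for the TATA motif, searched as TATAAA, was 12.4%. The Lama5 window had a GC content of 72.4%, where the median window had 52.4%. A match is a description of letters and shows no bound factor.

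The other abundant alpha chain, Lama4, of vessel and adipocyte basement membranes, was at 132 and 145 CPM (WT) and 114 and 166 CPM (AXL KO). Its groups overlapped, with a log2 difference of 0.02 ± 0.23 (SE), and the AXL KO libraries were its lowest and its highest. The 7 endothelial markers followed the same order in AXL KO, with a summed level of 94.8 and 127 CPM in replicates 1 and 2. In WT their order was the reverse, at 109.8 and 106 CPM. Adipocyte markers summed to 18.8 and 38.1 CPM (WT) and 26.7 and 35.0 CPM (AXL KO). Fibroblast markers summed to 429 and 607, then 193 and 555 CPM, and pericyte and smooth muscle markers to 208 and 269, then 194 and 215 CPM. These adipocyte, fibroblast and pericyte sums, like Lama4, were higher in replicate 2 of each group. None of these markers was at 0, and their part in Lama4 was not tested. In bulk tissue, fewer cells of a type and less RNA per cell cannot be told apart. Lama5 made up 50.2% and 71.8% of the summed alpha chains per kilobase in WT and 44.6% and 38.9% in AXL KO. The ratio of Lama5 to Lama4 was 1.12 and 2.77 in WT and 0.893 and 0.723 in AXL KO. With coding transcripts as lengths the mean Lama5 share was 36.5% in place of 51.4%, so which of these chains leads depends on the length. The order of the libraries in the ratio cannot depend on it, since a length scales every library alike.

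Lama3 and Lamb3, chains of the laminin found under hemidesmosomes, each had a positive difference. Lama3, on chromosome 18 from 12333819 to 12583013, was at 1.68 and 1.15 CPM (WT) and 2.19 and 2.67 CPM (AXL KO). Lamb3, on chromosome 1 from 193207699 to 193343878, was at 16.3 and 12.5 CPM (WT) and 19.2 and 29.6 CPM (AXL KO). Both AXL KO libraries were above both WT libraries for these 2 genes. The log2 differences of Lama3 and Lamb3 were 0.78 ± 0.43 and 0.76 ± 0.31 (SE), with unadjusted p-values of 0.13 and 0.058. Without WT 2, the lowest library for each, they were 0.54 and 0.59. Lama3 rested on 22 to 89 counts per library.

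Lamb2, a chain of adult basement membranes, held between 83.1% and 91.2% of the beta chains per kilobase. Lamb2 was at 288 and 211 CPM (WT) and 282 and 233 CPM (AXL KO), with no clear group difference (log2 0.04 ± 0.24, SE). Lamb1, a widespread beta chain, was at 20.7 and 32.9 CPM (WT) and 18.9 and 33.0 CPM (AXL KO), each group having a low and a high library. Lamc1, the gamma chain of most laminins, was at 108 and 119.8 CPM (WT) and 91.2 and 118 CPM (AXL KO). Lama1 was at 6.78, 4.08, 5.88 and 9.60 CPM and Lama2, the muscle and nerve chain, at 5.19, 8.90, 3.69 and 10.02 CPM in WT 1, WT 2, AXL KO 1 and AXL KO 2. Lamc3 had 4, 12, 1 and 9 counts in the same order and was not tested.

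**Figure D3:**
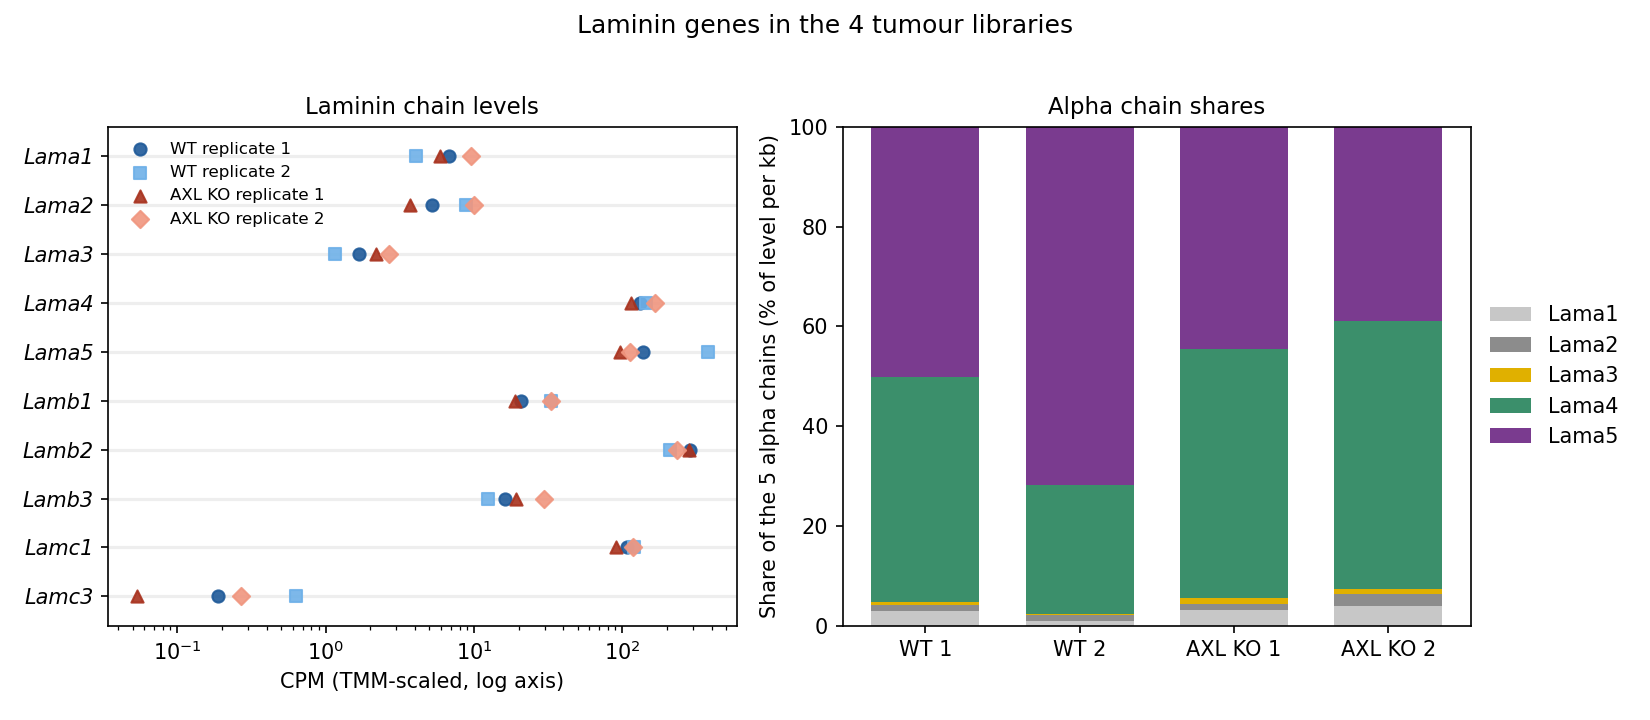
Left, CPM (TMM scaling, log axis) of laminin chains in each library; right, the share of each alpha chain in the summed alpha chain level per kilobase, by library. Lama5 stands out in WT 2 with 378 CPM and a share of 71.8%, and Lama3 is the smallest share in each library, between 0.232% and 1.08%.

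The widely expressed and RGD-binding integrins were led by Itgb1, which had the smallest difference among them. Itgb1 was at 553 and 595 CPM (WT) and 637 and 584 CPM (AXL KO), a log2 difference of 0.09 ± 0.22 (SE). Itgb3, on chromosome 11 from 104608000 to 104670476, encodes the beta chain known from vessels, platelets and osteoclasts. It was at 91.8 and 85.0 CPM (WT) and 181 and 98.3 CPM (AXL KO). The groups did not overlap, but AXL KO 2 lay close to the WT libraries. The log2 difference was 0.66 ± 0.32 (SE, unadjusted p = 0.090) by edgeR, and it was 0.15 without AXL KO 1 and 1.02 without AXL KO 2. Its platelet partner Itga2b was at 2.88 to 4.08 CPM in the 4 libraries, and of 6 platelet markers Gp6 was at 0 and the summed level between 0.961 and 3.87 CPM.

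Itgb5, which binds vitronectin with Itgav, was at 287 and 165 CPM (WT) and 353 and 261 CPM (AXL KO). WT 2 was the lowest library, and the log2 difference of 0.44 ± 0.33 (SE) was 0.10 without it. Itgav itself was at 91.4 and 149 CPM (WT) and 92.9 and 85.9 CPM (AXL KO), so that 3 libraries were alike and WT 2 was above them. The beta chains that pair with Itgav, Itgb3, Itgb5, Itgb6 and Itgb8, summed to 12.2 and 4.97 times Itgav per kilobase in WT and to 16.3 and 12.5 times in AXL KO. Itgb5 held between 67.4% and 77.6% of that sum. Itga5, the fibronectin receptor chain, was at 8.46 and 12.4 CPM (WT) and 6.30 and 12.7 CPM (AXL KO).

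Of the stromal, muscle and endothelial integrins, Itga8 was the most abundant. It encodes the receptor chain for nephronectin, and the nephronectin gene Npnt was at 1249.7 and 901 CPM (WT) and 1442 and 1209.8 CPM (AXL KO). Itga8, on chromosome 2 from 12106632 to 12301922, was at 80.7 and 152 CPM (WT) and 63.9 and 87.0 CPM (AXL KO). WT 2 thus had the most Itga8 and the least Npnt. The log2 difference of Itga8 was −0.63 ± 0.35 (SE, unadjusted p = 0.13) and −0.10 without WT 2. Its share among the alpha chains that can pair with Itgb1 was 14.04% and 17.6% in WT and 13.02% and 16.7% in AXL KO. Itga6 held between 49.3% and 58.8%, and in WT 1 Itga3 also exceeded Itga8, with 15.3%.

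Itga1, a collagen-binding chain of smooth muscle, vessels and some T cells, was at 22.4 and 19.6 CPM (WT) and 26.2 and 34.4 CPM (AXL KO). Its groups did not overlap, and its log2 difference of 0.53 ± 0.24 (SE, unadjusted p = 0.076) lay between 0.30 and 0.71 with any 1 library left out. Itga10, of cartilage, was lower in both AXL KO libraries, with 1.08 and 1.78 CPM (WT) and 0.801 and 0.78 CPM (AXL KO), on 15 to 34 counts per library. Exons of Itga10 overlap those of Gm42957 on the same strand over 33.5% of their length, but Gm42957 has no row in the counts. Itga11, the collagen receptor chain of fibroblasts, was at 1.496 and 1.62 CPM (WT) and 1.01 and 3.06 CPM (AXL KO). Lama2, Lamb1, Itga5, Itga7 and Itga11 were among 12 members lowest in AXL KO 1, 33.3% of those tested beside 24.7% of all genes. The others were Itga2, Itga4, Itga8, Itgb4, Lama4, Lama5 and Lamc1, which include epithelial and leukocyte integrins. The summed level of 6 fibroblast markers was lowest in AXL KO 1 too. That sum was 429 and 607 CPM in WT and 193 and 555 CPM in AXL KO, with no marker at 0. Its part in these genes was not tested. Itga7 was at 2.20, 3.46, 1.76 and 3.06 CPM and Itga9 at 8.14, 6.39, 6.94 and 8.73 CPM in WT 1, WT 2, AXL KO 1 and AXL KO 2.

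All 8 leukocyte integrin genes had a positive log2 difference, between 0.05 and 0.95 with a median of 0.33, yet the groups overlapped for 7 of them. WT 1 was above WT 2 and AXL KO 2 above AXL KO 1 for each of the 8. WT 2 was the lowest library for 7 and AXL KO 2 the highest for 7. Summed, they were at 95.0 and 49.2 CPM (WT) and 74.9 and 108 CPM (AXL KO). They held between 3.002% and 6.74% of all integrin transcripts per kilobase, lowest in WT 2. Without WT 2 the median was 0.02, and without WT 1 it was 0.97.

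Itgae, the alpha chain that binds E-cadherin and marks tissue-resident T cells and some dendritic cells, varied most among the libraries of the 8. It lies on chromosome 11 from 73090583 to 73147446 and was at 13.8 and 1.20 CPM (WT) and 10.3 and 18.5 CPM (AXL KO). WT 2 held 23 counts of it, and the other libraries 193 to 616. The log2 difference was 0.93 ± 1.02 (SE), 0.06 without WT 2 and 3.58 without WT 1. The 7 T and NK cell markers had the same low library, with summed levels of 26.0 and 3.25 CPM in WT and 16.7 and 23.9 CPM in AXL KO. Of these 7 markers 5 had a positive difference, and none was at 0. Their part in the level of Itgae was not tested. Itgb7, the partner of Itgae and Itga4, was at 1.92 and 1.15 CPM (WT) and 2.14 and 3.30 CPM (AXL KO), the only leukocyte integrin whose groups did not overlap (log2 0.83 ± 0.48, SE, unadjusted p = 0.14).

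Itgb2, the common beta chain of leukocytes, was at 21.9 and 13.5 CPM (WT) and 17.0 and 26.0 CPM (AXL KO). Of its alpha chains, Itgal, known from lymphocytes, was at 11.7, 5.60, 9.40 and 12.4 CPM in WT 1, WT 2, AXL KO 1 and AXL KO 2. Itgam, known from macrophages and neutrophils, was at 22.8, 15.8, 16.6 and 23.4 CPM in the same order, and Itgax, known from dendritic cells and some macrophages, at 18.0, 8.48, 15.8 and 17.4 CPM. WT 2 was the lowest library for each of the 4 genes. Without it the log2 differences of Itgal, Itgam, Itgax and Itgb2 were −0.10, −0.19, −0.12 and −0.02, in place of 0.33, 0.05, 0.32 and 0.28 with all libraries. Per kilobase, Itgb2 stayed between 0.686 and 0.824 times the sum of its 4 alpha chains in the 4 libraries. Itgam held between 40.6% and 54.1% of that sum and Itgax between 30.4% and 40.5%. Itgad had 11, 4, 9 and 30 counts, and Itga4 was at 4.35, 3.25, 3.10 and 5.79 CPM. Exons of Itgam overlap those of a further annotated gene on the same strand, Gm49368, over 68.7% of their length, but Gm49368 has no row in the counts. Exons of Itga4 overlap those of Cerkl, which was counted, on the opposite strand over 8.04%.

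Relative to 7 pan-leukocyte markers, whose sum was 445 and 345 CPM in WT and 387 and 489 CPM in AXL KO, the 8 integrins came to 21.3% and 14.3% in WT and to 19.4% and 22.0% in AXL KO. Of the 7 pan-leukocyte markers 7 had a positive difference, and none was at 0. Most of their sum was 1 gene, Lcp1, at 278 and 254 CPM (WT) and 249 and 306 CPM (AXL KO). Ptprc was at 28.4 and 16.3 CPM (WT) and 27.3 and 37.2 CPM (AXL KO). The percentages thus rest largely on Lcp1, and a low one in WT 2 does not show fewer integrin transcripts per leukocyte. Against this sum Itgam differed little, from 4.29% to 5.12% over the 4 libraries, while Itgae ranged from 0.349% to 3.78%. The summed macrophage markers were at 767 and 526 CPM (WT) and 666 and 871 CPM (AXL KO), again lowest in WT 2. Neutrophil markers summed to at most 1.88 CPM, with Ly6g at 0 in all libraries.

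**Figure D4:**
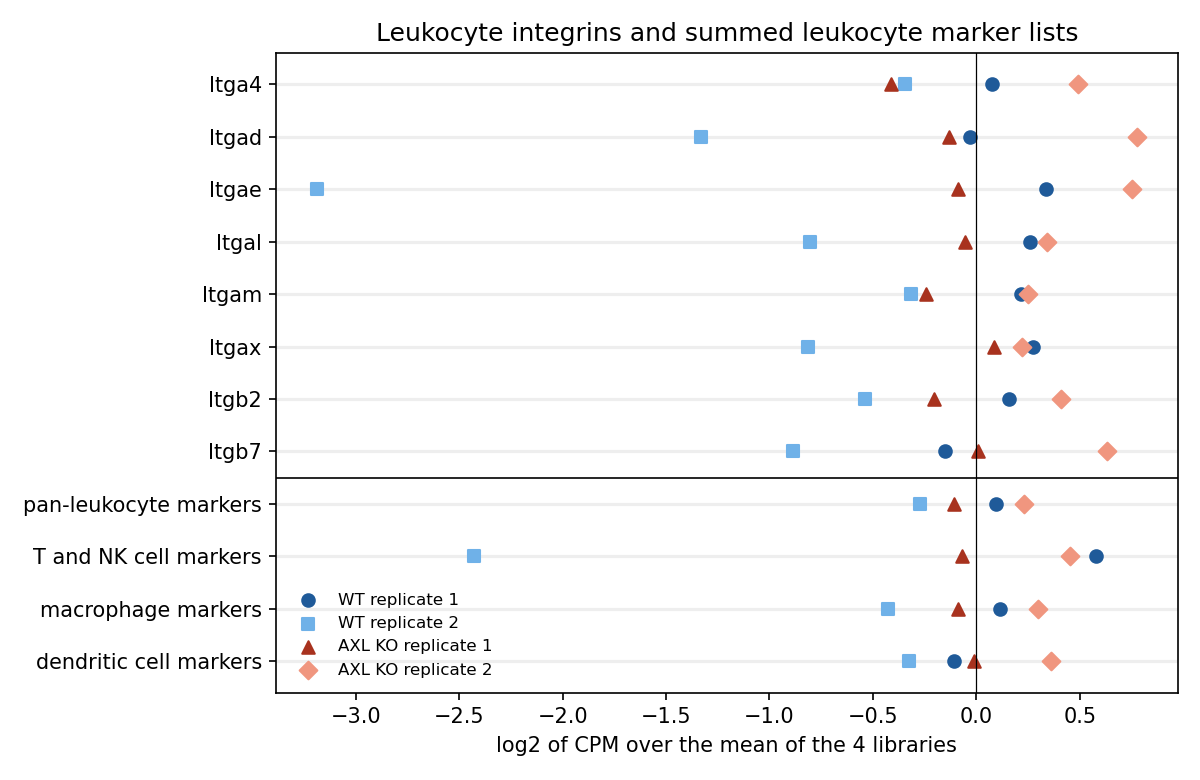
The log2 ratio of each library to the mean of the 4 libraries, for the CPM of the 8 leukocyte integrin genes (above the line) and for the summed CPM of 4 leukocyte marker lists (below it). WT 2 lies farthest to the left for Itgae at −3.19 and for the T and NK cell marker sum at −2.43, and AXL KO 2 is to the right for most rows.

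Itgam, Itgax and Itgad lie next to each other on chromosome 7, from 128062640 to 128223816 on the plus strand. They share a beta chain and had the same lowest library. The bases before Itgam and Itgax are shown, since no RefSeq window was matched to the symbol Itgad. The windows, again of 250 bases up to the RefSeq start in GRCm38.p6 with motif matches in capitals, are chr7:128062390-128062639 for Itgam and chr7:128129300-128129549 for Itgax, both on the plus strand.
Itgam: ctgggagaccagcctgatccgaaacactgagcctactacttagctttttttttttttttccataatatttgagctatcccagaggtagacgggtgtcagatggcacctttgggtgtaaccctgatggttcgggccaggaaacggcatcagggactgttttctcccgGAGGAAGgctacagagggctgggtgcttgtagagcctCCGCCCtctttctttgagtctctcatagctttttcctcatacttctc
Itgax: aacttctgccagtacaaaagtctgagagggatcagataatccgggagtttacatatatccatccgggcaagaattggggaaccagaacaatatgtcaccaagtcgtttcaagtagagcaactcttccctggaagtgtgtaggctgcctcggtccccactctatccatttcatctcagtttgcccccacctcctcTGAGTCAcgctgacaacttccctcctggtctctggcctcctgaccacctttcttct
The Itgam window held the ETS-type motif once, from 84 to 78 bases before the start, and the GC box once on the other strand. The Itgax window held the AP-1 motif once, from 56 to 50 bases before the start, and none of the other motifs. Their GC content was 49.6% and 50%, well below that of Lama5. RefSeq windows were matched by symbol for 23 of the 37 genes.

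The partner genes of integrins and laminins showed no call either, and 0 of the members of the 6 lists passed edgeR. Of 18 basement membrane partners 16 were tested, with 6 positive and 10 negative differences, a median of −0.15 and 1 unadjusted p under 0.05. That median was 0.03 without WT 2 and 0.05 without AXL KO 1. That gene was Ntn4, whose product binds laminin gamma chains, at 19.8 and 58.6 CPM (WT) and 13.5 and 13.6 CPM (AXL KO). WT 2 was again far above the other libraries, as for Lama5. Fras1 and Frem1, of the epithelial basement membrane, followed by p, at log2 differences of 1.66 ± 0.80 and −1.28 ± 0.76 (SE). Of 6 hemidesmosome genes 5 had negative differences, with a median of −0.42, and of −0.23 without WT 2. The most negative were Col17a1, Krt5 and Krt14, all at low counts, and the median rests in part on them. Summed, the 6 genes were at 454 and 472 CPM (WT) and 481 and 619 CPM (AXL KO), with Dst the most abundant. Dst, a plakin gene, was at 271 and 243 CPM (WT) and 306 and 427 CPM (AXL KO). Plec, also a plakin gene, was at 86.0 and 103 CPM (WT) and 70.0 and 90.3 CPM (AXL KO). Col17a1, Krt5 and Krt14 were at or below 1.36 CPM in every library. Of 6 other laminin receptors 5 had negative differences, with a median of −0.31, and of −0.15 without WT 2. Bcam, a receptor for laminins with the Lama5 chain, was at 41.8 CPM in both WT libraries, below its 63.4 and 52.0 CPM in AXL KO 1 and AXL KO 2. Sdc1 was at 45.7 and 53.8 CPM (WT) and 27.7 and 39.1 CPM (AXL KO), and Mcam had a log2 difference of −0.49 ± 0.32 (SE).

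Of 30 genes of integrin activation and the adhesion plaque, 21 had negative and 9 positive differences, with a median of −0.09. In both AXL KO libraries 7 of the 30 were lower and 1 higher, beside 14.5% and 14.7% of all genes tested. Bcar1, an adaptor phosphorylated at focal adhesions, was at 32.8 and 32.7 CPM (WT) and 16.1 and 23.4 CPM (AXL KO), a log2 difference of −0.73 ± 0.26 (SE, unadjusted p = 0.036). The adaptor gene Pxn and Sharpin, an inhibitor of integrin activation, had log2 differences of −0.34 ± 0.19 and −0.36 ± 0.20 (SE). Among 8 ligands of leukocyte integrins 7 were tested, 4 positive and 3 negative, with a median of 0.06. Jam2, a junctional ligand of integrins with the Itga4 chain, was at 35.5 and 36.9 CPM (WT) and 101 and 49.5 CPM (AXL KO) (log2 1.05 ± 0.36, SE, unadjusted p = 0.032). As for Itgb3, AXL KO 1 had the higher level of Jam2. Jam3 and Icam1 had log2 differences of 0.39 ± 0.44 and 0.19 ± 0.43 (SE), and Madcam1 had no count. Of 10 RGD ligands and TGF-beta genes 9 were tested, 7 negative and 2 positive, with a median of −0.41. Vtn, Mfge8 and Tnc had log2 differences of 1.12 ± 0.60, −0.60 ± 0.41 and −0.71 ± 0.64 (SE). Mfge8, the gene of a secreted RGD protein, was at 49.4 and 112 CPM (WT) and 48.2 and 58.6 CPM (AXL KO), so that WT 2 alone was high. Tnc was at 8.14, 19.5, 4.38 and 12.3 CPM and Vtn at 0.982, 0.366, 1.34 and 1.62 CPM in WT 1, WT 2, AXL KO 1 and AXL KO 2.

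The 2 AXL KO tumours also differed from each other in these genes. AXL KO 2 was above AXL KO 1 for 26 of the 36 members, 72.2%, where it was above it for 49.7% of all genes tested. It was above it for 9 of 10 laminins and 8 of 8 leukocyte integrins, but for 1 of the 6 widely expressed, RGD-binding and platelet integrins. AXL KO 2 was the highest of the 4 libraries for 18 members, 50%, beside 17.2% of all genes. The 10 members with the higher level in AXL KO 1 were Itga2b, Itga6, Itga10, Itgav, Itgb1, Itgb3, Itgb5, Itgb6, Itgb8 and Lamb2. No test of this difference was made, since it concerns single libraries and AXL KO 2 has its own description prefix.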

How the data were processed

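RNA of 4 tumours was taken up in Trizol, cleaned on RNeasy columns and made into Illumina libraries, per the labels' protocols. The authors deposited whole-number read counts per Ensembl gene, not normalised. Per the submitters' processing notes, which assign no roles, the build was GRCm38 and the tools were TopHat2 2.0.10, HTSeq 0.5.3, CASAVA 1.8 and DESeq2 1.4.5. The annotation release and the strand setting were not given in the sources used here. The 5 summary lines of each file named no gene and were left out. Of the lines summed, 23.2% to 28.1% were alignments that were not unique, 5.28% to 8.11% were assigned to no counted feature and 0.635% to 1.85% were ambiguous.

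Symbols, positions and lengths came from GENCODE M21 (GRCm38), which matched 36429 of 38293 rows. Members are protein-coding symbols matching the name pattern, and members and lists were chosen with earlier results of these data known. Genes were kept with filterByExpr, leaving 14330 of 20587 with a count. AXL KO and WT were compared with edgeR 4.0.16 (TMM factors, glmQLFit with legacy=FALSE, glmQLFTest, no covariates) in R 4.3.3, and p-values were adjusted by Benjamini-Hochberg over the 14330 genes. Standard errors were derived from the log2 difference and the F statistic. Values per library are given for members with a mean CPM of at least 1, and the 3 genes with the smallest p are named in each partner list. The values of 1 member, which stays in the counts and medians, are not reported here. Marker lists are given by their sums. Npnt, Plec and the single luminal and basal markers were chosen after their values were seen. Alternatives used DESeq2 1.42.0, limma 3.58.1 (voom), other scaling and filters, a replicate block, each library left out in turn over the same genes, and, added after seeing the data, another gene length. The edgeR, DESeq2 and voom steps were tested on data simulated with 1 common spread for all genes. There edgeR called 19.4% of 2-fold, 77.6% of 4-fold and 100% of 16-fold changes. In the data themselves Axl, 10.0-fold lower in AXL KO, was not called by edgeR, so these shares do not carry over to them.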

Additional observations from a re-analysis of the deposited data

How the results depend on the processing

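Itga2, Itgad, Itga10 and Lamc3 had at most 34 counts in any library, and the largest standard error among members was that of Itgae, 1.02 on the log2 scale. With DESeq2, 16 of all genes were called. With 1 library left out, between 0 and 216 of all genes, 0 of the higher and between 0 and 1 of the lower members were called, the highest numbers being those without WT 1. In those fits between 8 and 21 members were higher and between 6 and 14 lower in all AXL KO libraries than in all WT libraries, beside 25.8% to 40.1% and 26.8% to 38.8% of all genes in the same fits. List medians with 1 library left out ran from −0.078 to 0.30 for all members, −0.23 to 0.020 for epithelial, −0.66 to 0.19 for stromal and 0.016 to 0.97 for leukocyte integrins. They ran from −0.29 to 0.50 for laminin alpha and 0.16 to 0.33 for laminin beta chains, −0.43 to 0.045 for basement membrane partners, −0.44 to −0.15 for other laminin receptors, −0.57 to −0.23 for hemidesmosome genes, −0.20 to −0.10 for adhesion plaque genes, −0.11 to 0.27 for leukocyte ligands and −0.80 to 0.085 for RGD ligands. The hemidesmosome median was −0.099 with a CPM of at least 1 in 2 libraries, where fewer genes were tested.

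The log2 differences of 17 members took both signs with 1 library left out. They ran from −1.83 to 0.18 for Itga2, −0.49 to 0.10 for Itga3, −0.74 to 0.28 for Itga5, −0.38 to 0.080 for Itga2b, −0.69 to 0.16 for Itga7, −0.083 to 0.30 for Itga9, −0.63 to 0.97 for Itga11 and −0.31 to 0.60 for Itga4. They ran from −0.10 to 0.96 for Itgal, −0.24 to 0.34 for Itgam, −0.12 to 0.97 for Itgax, −0.073 to 0.68 for Itgb2, −0.95 to 0.50 for Lama2, −0.29 to 0.26 for Lama4, −0.52 to 0.33 for Lamb1, −0.16 to 0.29 for Lamb2 and −0.34 to 0.043 for Lamc1. Under limma-voom Lama4 was at −0.016 and Lamb1 at 0.0019, and with the replicate number as a block Lama4 was at −0.0045. The other scaling and filter settings turned no member. The cause was not tested. The block changed no call, and deviations of same-numbered libraries from their group means correlated at −0.045, so the numbers were not taken as pairs.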
